A study of Mus musculus with 6 samples.

Results

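Cym, Pgc, Tff2, Cldn18 and Anxa10 are genes of stomach epithelium, and their transcripts were measured in cultured mouse pancreatic buds. These 5 genes were taken by name from the 54532 genes of the deposited table, with earlier results of the same libraries in view. They were thus in part chosen by their level in each library and by the difference between treatments, so these values are given as a description, with no test of the members. Buds of E12.5 mouse embryos were cultured for 2 days in medium with 10% fetal bovine serum and 0.1% DMSO. The 3 control samples received DMSO only, and the 3 TBZ samples also received 0.1 µM tetrabenazine (TBZ), an inhibitor of the vesicular monoamine transporter VMAT2, throughout the culture. The question of the study was the role of VMAT2 and monoamines in pancreas development. The labels name neither the strain nor the sex of the embryos, and do not say whether buds were pooled or whether replicates came from separate litters. The spread between samples may thus be partly technical.

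The stomach, the duodenum and the pancreas arise next to each other from the gut tube, and the stomach lies against the dorsal pancreatic bud. Mature gastric glands hold pit cells and neck cells that secrete mucins and trefoil peptides, chief cells that secrete the precursors of acid proteases, and parietal cells that secrete acid. Cym and Pgc encode secreted acid proteases of the pepsin family. Cldn18 encodes a claudin of gastric tight junctions, Anxa10 an annexin, a calcium- and lipid-binding protein, found in gastric epithelium, and Tff2 a trefoil peptide of mucous neck cells.

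The libraries held between 35825033 and 50620936 counted reads. Of the 54532 genes, 31250 had at least 1 read, and 18226 passed the edgeR filter on low counts. All 5 members passed it. Levels of a gene across libraries are given in CPM, the usual measure of read counts relative to library size, here after TMM scaling (edgeR's correction for library composition), and levels of different genes are compared only in FPKM, the authors' value scaled for gene length and library depth. All 12 genes of a pancreatic epithelium list, from Cpa1 to Mnx1, had a mean of at least 1 FPKM, as the tissue label implies. So did all 9 genes of a stomach mesenchyme list and 11 of 16 foregut and stomach transcription factors, so these levels do not set the pancreas apart from neighbouring tissue.

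Cym was the most abundant of the 5 genes, with a mean of 16.7 FPKM over the 6 libraries, and it varied 41.3-fold between them. Chymosin, its product, clots milk in the stomach of suckling mammals. Cym stood at 12.7, 15.5 and 63.4 CPM in control replicates 1 to 3 and, for TBZ in the same order, at 1.54, 28.5 and 2.78 CPM. Control replicate 3 was the highest library and TBZ replicates 1 and 3 were the lowest, while TBZ replicate 2 lay above control replicates 1 and 2, so that the groups overlapped. The mean (± SD, n = 3) was 30.5 ± 28.5 CPM for controls and 10.9 ± 15.2 CPM for TBZ. The log2 fold change was -1.46 ± 0.93 (SE, edgeR). The reads are those of whole buds, so fewer gastric-type cells and less RNA per cell cannot be told apart.

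Pgc, which encodes the pepsinogen from which gastricsin (pepsin C) is made in chief cells, had a mean of 3.11 FPKM and varied 39.1-fold. It stood at 11.0, 0.769 and 5.98 CPM in control replicates 1 to 3 and, for TBZ in the same order, at 0.297, 7.68 and 0.280 CPM. As with Cym, TBZ replicates 1 and 3 were the lowest libraries and TBZ replicate 2 was within the control range. The low TBZ values rested on 12 and 10 reads, against 313 reads in TBZ replicate 2. Unlike Cym, Pgc was highest in control replicate 1 and was also low in control replicate 2, with 39 reads. Its log2 fold change was -1.08 ± 1.08 (SE, edgeR).

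The ratio of the proteases to each other was not constant. Cym exceeded Pgc 1.30-fold in FPKM in control replicate 1 and 22.7-fold in control replicate 2, with ratios from 4.17 to 11.9 in the other 4 libraries. The coding sequences of Cym (1137 bases) and Pgc (1176 bases) were identical at 59.2% of their aligned bases and shared no run of more than 13 bases. Both genes have 9 exons in GENCODE M21. Cym lies on the minus strand of chromosome 3 from 107211293 to 107221732, and Pgc on the plus strand of chromosome 17 from 47726842 to 47734482 (mm10).

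Promoter sequence was taken from RefSeq (GRCm38.p6, the assembly of mm10), which matched 4 of the 5 members by symbol: Cym, Pgc, Anxa10 and, with a pair of start sites, Cldn18. The upstream 250 bases of Cym, Pgc and Anxa10 are shown because each holds a TATAAA element, so the genes shown were chosen by this motif. These genes were low together in TBZ replicates 1 and 3. Cldn18 was low there too, and holds no TATAAA before either start site. Capitals mark matches on either strand to any of 9 motifs, and none of the matches overlap. The motifs were TATAAA, which is the core of a TATA box. For GATA factors they were AGATAA and, with the other first letter, TGATAA. For forkhead factors they were TGTTTAC and, as a variant form, TATTTAC. For SOX factors they were ACAATG and, as a variant form, ACAAAG. The last were GTTAAT, which is part of the HNF1 site, and the CDX factor motif TTTATGG.
Cym (chr3:107221733-107221982, minus strand): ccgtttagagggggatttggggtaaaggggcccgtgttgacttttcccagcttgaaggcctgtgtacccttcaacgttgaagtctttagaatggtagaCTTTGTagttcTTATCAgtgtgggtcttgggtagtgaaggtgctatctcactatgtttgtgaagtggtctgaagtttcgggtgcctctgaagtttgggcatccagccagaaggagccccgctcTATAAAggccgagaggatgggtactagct
Pgc (chr17:47726592-47726841, plus strand): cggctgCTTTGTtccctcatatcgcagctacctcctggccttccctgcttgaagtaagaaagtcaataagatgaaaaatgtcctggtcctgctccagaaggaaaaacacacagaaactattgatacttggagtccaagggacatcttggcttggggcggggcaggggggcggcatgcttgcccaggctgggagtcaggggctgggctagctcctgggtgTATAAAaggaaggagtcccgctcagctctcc
Anxa10 (chr8:62123194-62123443, minus strand): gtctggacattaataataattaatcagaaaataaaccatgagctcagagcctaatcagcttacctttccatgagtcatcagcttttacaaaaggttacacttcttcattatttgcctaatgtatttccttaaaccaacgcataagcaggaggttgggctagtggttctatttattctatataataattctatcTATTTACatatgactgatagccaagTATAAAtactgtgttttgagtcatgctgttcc
TATAAA began 29 bases before the start site in Cym, 31 bases before it in Pgc and 32 bases before it in Anxa10. It was found in 3 of the 5 member promoters and in 12.4% of the 32851 promoters of the same length. ACAAAG occurred upstream of Cym and Pgc, on the opposite strand, and in 16.5% of all promoters. TGATAA occurred in Cym (7.94% of all promoters) and TATTTAC in Anxa10 (2.73%). These matches describe the letters of the window and were not tested for binding.

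Cldn18, the claudin of gastric and lung epithelium, varied 7.75-fold between libraries at a mean of 0.456 FPKM. It stood at 4.20, 0.749 and 1.80 CPM in control replicates 1 to 3 and, for TBZ in the same order, at 0.545, 4.22 and 0.701 CPM. Control replicate 1 and TBZ replicate 2 were the high libraries and were close to equal, and the other TBZ replicates and control replicate 2 were the low ones. The log2 fold change was -0.29 ± 0.77 (SE, edgeR), smaller than its error. The gene lies on the minus strand of chromosome 9 from 99689461 to 99717267 and has 4 annotated transcripts, which start near 99717267 or near 99710063. Stomach and lung are known to use different first exons of Cldn18, and gene-level counts do not separate them. The 250 bases before the start at 99717267 held AGATAA 2 times (9.99% of all promoters hold it) and GTTAAT at 1 place (6.43%), and the bases before the start at 99710063 held none of the motifs.

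Anxa10 was the least abundant member, with 92 reads in all and a mean of 0.157 FPKM. It had 28, 1 and 12 reads in control replicates 1 to 3 and 0, 49 and 2 reads in TBZ replicates 1 to 3. The libraries with the most reads were control replicates 1 and 3 and TBZ replicate 2, the same 3 libraries in which Pgc and Cldn18 were highest. In CPM, TBZ replicate 2 (1.20) was at least 16.2-fold higher than TBZ replicate 1, where a count of 0 allows up to 0.0743 CPM (3 counts, for counting error only). The log2 fold change of 0.52 ± 1.19 (SE, edgeR) was smaller than its error. Anxa10 lies on the minus strand of chromosome 8 from 62057042 to 62123150.

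Tff2 differed from the other 4 genes in which libraries were high. It stood at 0.576, 0.749 and 0.287 CPM in control replicates 1 to 3 (27, 38 and 12 reads) and, for TBZ in the same order, at 1.61, 1.38 and 1.23 CPM (65, 56 and 44 reads). Each TBZ library lay above each control library, and control replicate 3, the highest library for Cym, was the lowest for Tff2. The mean (± SD, n = 3) was 0.538 ± 0.234 CPM for controls and 1.41 ± 0.191 CPM for TBZ. The log2 fold change was 1.37 ± 0.32 (SE, edgeR). Between the 3 TBZ libraries Tff2 varied 1.31-fold, against 18.6-fold for Cym and 27.4-fold for Pgc. In FPKM, Cym exceeded Tff2 by 9.79-fold to 104.3-fold in the controls and by 9.80-fold in TBZ replicate 2. In TBZ replicates 1 and 3 the Cym to Tff2 ratio was 0.451 and 1.06, so that Tff2 was the most abundant of the 5 genes in TBZ replicate 1.

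**Figure D1:**
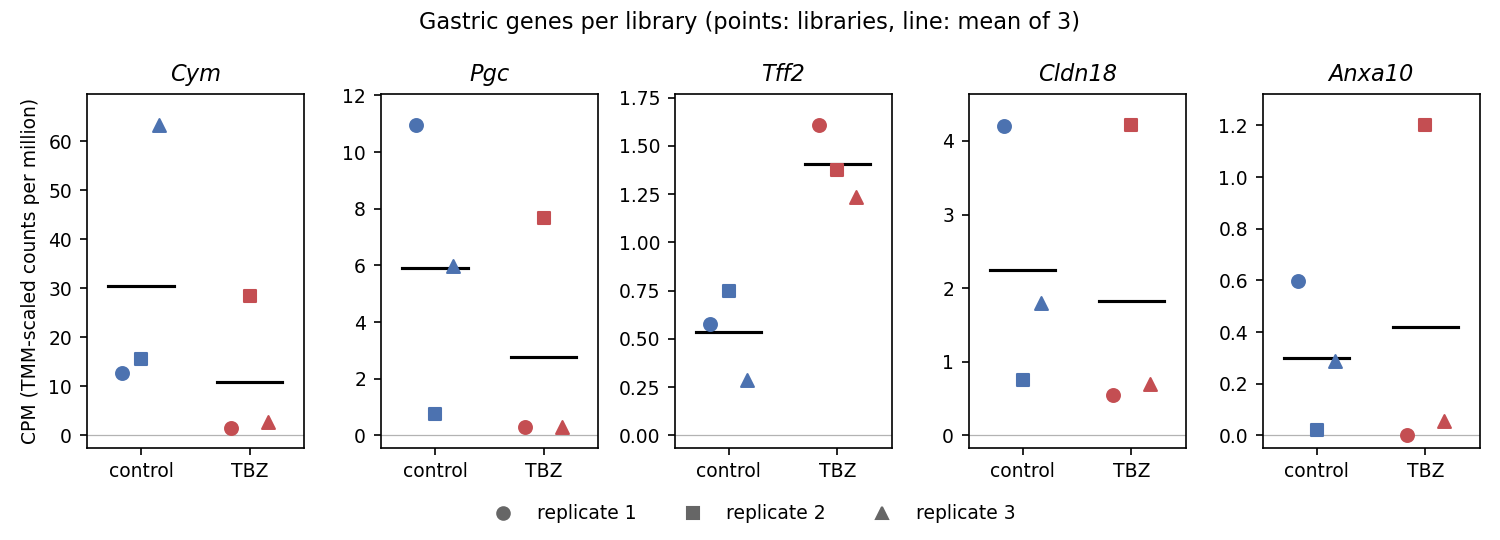
CPM of each gene (vertical axis, linear, own scale per panel) in the 3 control (blue) and 3 TBZ (red) libraries, with marker shape giving the replicate and the line the mean of 3. Cym, Pgc, Cldn18 and Anxa10 overlap between groups, with TBZ replicate 2 far above TBZ replicates 1 and 3, and Tff2 does not overlap.

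None of the 5 members passed the edgeR test across all genes (adjusted p under 0.05), which called 34 of 18226 genes, 0.187%. At an unadjusted p under 0.05 edgeR passed 1752 of these genes, Tff2 alone among the members. With no filter on low counts edgeR called 1.42% of genes, and again Tff2 alone of the members. The libraries of the groups were fully separated for Tff2 only, a separation seen for 15.5% of the tested genes. Tff2 was also the only member that DESeq2 called, a test that called 1.43% of the genes to which it gave an adjusted p, and the only member below 0.05 in the authors' deposited table, where 0.767% of listed genes were. In the authors' deposited table the log2 fold change of Tff2 was 1.37 with an adjusted p of 0.0316, and Cym was listed with no p-value. Values there were nearly those of DESeq2 here: the log2 fold change of Tff2 was 1.37375 in both, and each called 222 genes. The calls of Tff2 by DESeq2 and in the authors' table are thus not separate results. Nothing is read from these member counts, since this contrast took part in the choice of the genes.

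The library left out set the size of the log2 fold change for the 4 genes with overlapping groups. Without TBZ replicate 2, Cym stood at -3.83, Pgc at -4.33, Cldn18 at -1.85 and Anxa10 at -3.36 (edgeR log2 fold changes). Without control replicate 3, Cym went to -0.35. Without control replicate 1, Pgc went to -0.26 and Cldn18 turned to 0.54. Cldn18 was also above 0 without TBZ replicate 1 (0.15) or 3 (0.09), and Anxa10 was below 0 without control replicate 2 (-0.06). Tff2 stayed between 1.08 and 1.69 in the same 6 fits, and it was not called in any of them.

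**Figure D2:**
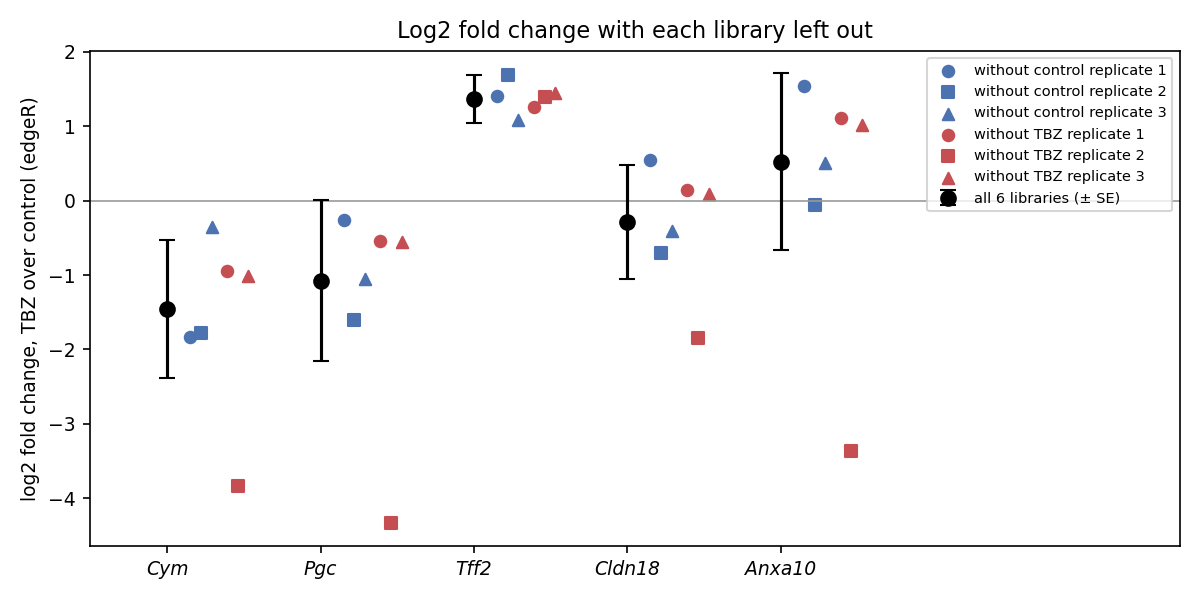
edgeR log2 fold change of TBZ over control for each gene (vertical axis), with all 6 libraries (black, whisker SE) and with each library left out (blue circles, squares and triangles for control replicates 1 to 3, red for TBZ). Leaving out TBZ replicate 2 moves Cym, Pgc, Cldn18 and Anxa10 to between -4.33 and -1.85, and Tff2 stays between 1.08 and 1.69.

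The spread of 4 members between replicate libraries lay far above that of genes at like levels. The members were in part chosen by their level in each library, so the comparison with unselected genes is a description only. The biological coefficient of variation, edgeR's estimate of relative spread between replicates beyond counting error, was 77.9% for Cym, 93.9% for Pgc, 64.3% for Cldn18 and 109.1% for Anxa10. The median tested gene had 8.12%. Among genes within 2-fold of the mean CPM of each member, the median was 6.91% for Cym, 12.4% for Pgc, 15.8% for Cldn18 and 22.6% for Anxa10. Tff2, at 22.5% against a median of 18.9% for genes of its level, was not far from them, and 73.7% of those genes had a lower value.

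**Figure D3:**
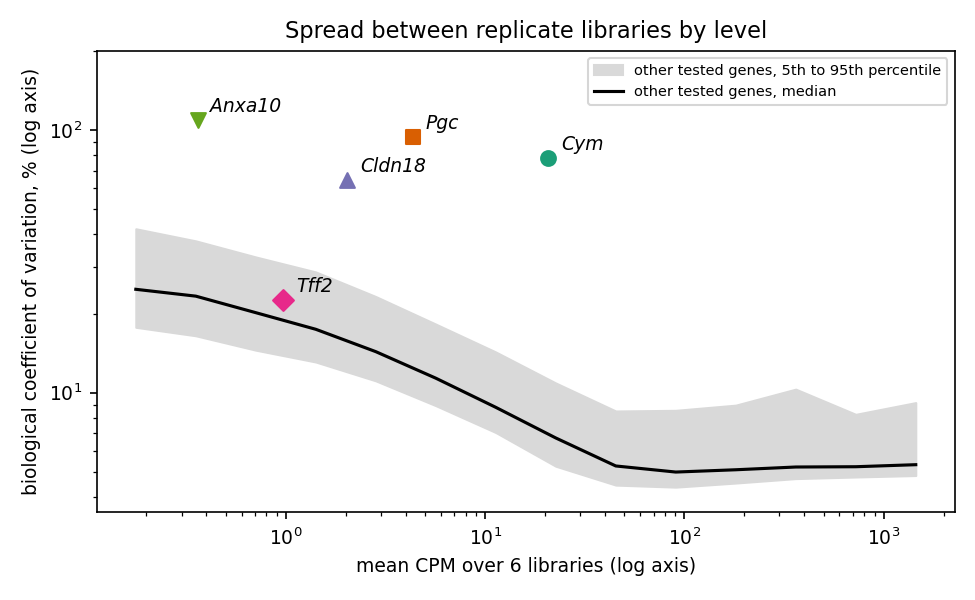
Biological coefficient of variation (vertical log axis, percent) against mean CPM over the 6 libraries (horizontal log axis) for the 5 genes, with the median (line) and the 5th to 95th percentile (grey) of the other tested genes in bins of level. Cym, Pgc, Cldn18 and Anxa10 lie between 64.3% and 109.1%, above the grey band, and Tff2 lies within it at 22.5%.

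The likeness of a gene to the members was measured as the root mean square difference, over the 6 libraries, between its profile and the median profile of the 5 members, each profile being log2(CPM + 0.5) minus its own mean. In each library the median of the 5 was the value of Anxa10 or of Cldn18, so their small differences (0.203 and 0.283) follow from the construction, and the profile is in effect that of these genes. Cym (1.29), Tff2 (1.02) and Pgc (0.976) were far from it: 15029, 14955 and 14883 of the 15045 other genes with a mean of at least 1 CPM were closer. Cym and Pgc dipped with the median profile in TBZ replicates 1 and 3, by larger amounts, and Tff2 did not. Of these other genes, whose median difference was 0.782, the nearest were Tspan8 (0.262), Vsig1 (0.285), Six2 (0.308), Vsig2 (0.325), Prkg2 (0.368), Agr2 (0.377), Bace2 (0.415) and the pseudogene Nutf2-ps1 (0.416). Vsig1 encodes a junctional adhesion protein of gastric epithelium, Tspan8 a tetraspanin of gut epithelium, and Agr2 a disulfide isomerase of mucus-secreting cells. Six2 encodes a transcription factor found in stomach mesenchyme, among other tissues, so the nearest genes were not all epithelial.

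Agr2 stood at 2.52, 0.572 and 1.36 CPM in control replicates 1 to 3 and, for TBZ in the same order, at 0.0991, 4.35 and 0.140 CPM. Vsig1 stood at 1.94, 0.592 and 1.51 CPM in the controls and at 0.149, 1.96 and 0.224 CPM in TBZ. In both, the order of libraries was close to that of Pgc, with TBZ replicates 1 and 3 lowest and control replicate 2 next. None of the 8 genes was called by edgeR in TBZ against control, and their log2 fold changes lay between -0.76 (Vsig1) and 0.07 (Agr2).

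**Figure D4:**
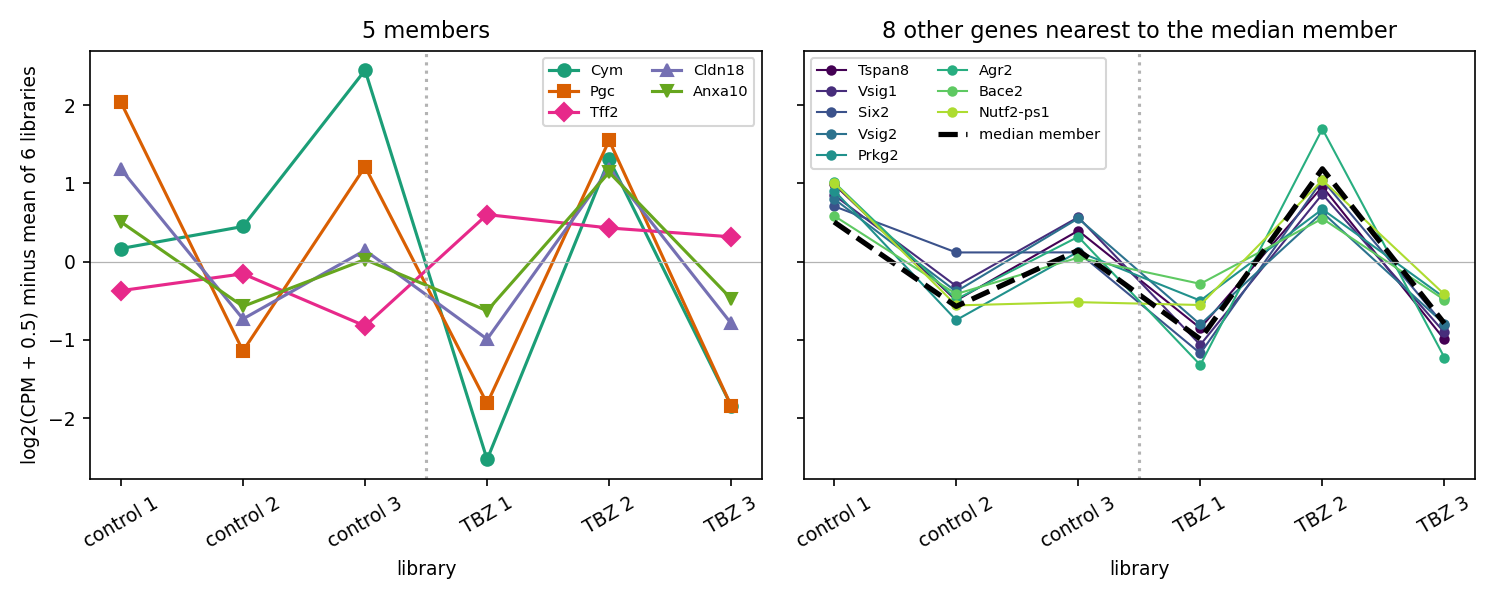
Profiles over the 6 libraries (horizontal axis) as log2(CPM + 0.5) minus the mean of each gene (vertical axis), for the 5 members on the left and, on the right, the 8 other genes nearest to the median member (black dashes). Cym, Pgc, Cldn18 and Anxa10 dip in TBZ replicates 1 and 3 and are above their means in TBZ replicate 2 (Cym 1.31, Pgc 1.55), while Cym is highest in control replicate 3 (2.45) and Pgc in control replicate 1 (2.04), and Tff2 is above its mean in all 3 TBZ libraries.

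Other genes of gastric glands and pits were mostly low. Of 29 listed genes, 27 had reads, 6 had a mean of at least 1 FPKM and 17 were tested. Defining genes of mature stomach differed in level. Tff1 of pit cells and the gastric lipase gene Lipf had no read in any library, and Muc5ac of pit cells did not exceed 0.263 CPM. Of the subunits of the parietal cell proton pump, Atp4b did not exceed 0.0280 CPM, whereas Atp4a had 116 to 156 reads in every library (2.31 to 3.87 CPM). Gkn1, a gastrokine gene of pit cells, had 22 to 45 reads in every library. None of the 17 passed the edgeR test in either direction, 8 had a negative and 9 a positive log2 fold change, and the median was 0.18, against 0.00 for all tested genes. DESeq2, which called 1.43% of the genes to which it gave an adjusted p, put Muc1 and Kcnq1 higher. With no filter on low counts, where edgeR called 1.42% of all genes, it put 2 genes of the list higher and 2 lower.

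The most abundant genes of that list were Muc1, Kcnq1, Ghrl and Gast, which the embryonic pancreas is known to express too. Muc1, a membrane mucin, stood at 54.6, 58.5 and 60.8 CPM in control replicates 1 to 3 and at 69.7, 68.6 and 75.7 CPM in TBZ (log2 0.30 ± 0.06 SE, edgeR adjusted p = 0.101). Kcnq1, a potassium channel subunit gene used by parietal cells, stood at 26.7 to 28.5 CPM in control and at 34.4 to 38.2 CPM in TBZ (log2 0.37 ± 0.06 SE, edgeR adjusted p = 0.0534). Both had groups that did not overlap, a separation seen for 15.5% of the tested genes. The log2 fold changes of Ghrl (ghrelin) and Gast (gastrin) were 0.41 ± 0.18 and 0.28 ± 0.22 (SE), with overlapping groups.

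Of the 27 genes of the list with reads, 3 had no read in TBZ replicates 1 and 3, at low counts in the other libraries; the genes of this paragraph were named after their values were seen. Pga5, a pepsinogen gene, had 47, 9 and 36 reads in control replicates 1 to 3 and 0, 34 and 0 reads in TBZ replicates 1 to 3. Gkn2, a gastrokine gene of pit cells, had 1, 11 and 26 reads in control and 0, 33 and 0 in TBZ. Gif, which encodes gastric intrinsic factor, had 8, 17 and 26 reads in control and 0, 6 and 0 in TBZ. The libraries without reads of these genes were the 2 in which Cym and Pgc were lowest. In CPM, TBZ replicates 1 and 3 were both lowest for 5 of the 27 genes: Aqp5, Vsig1, Gkn2, Pga5 and Gif. The share over all genes was not counted. Vsig1 had 91, 30 and 63 reads in control and 6, 80 and 8 in TBZ. Some other genes of the list at like counts were not low in both. Gkn1 had 35, 29 and 29 reads in control and 45, 22 and 26 in TBZ, so that TBZ replicate 1 was its highest library. Ctse, which encodes the acid protease cathepsin E, had 56, 31 and 47 reads in control and 19, 64 and 51 in TBZ, low in TBZ replicate 1 but not in TBZ replicate 3. Gkn3, a gastrokine gene of neck cells, had 71, 78 and 92 reads in control and 30, 22 and 42 in TBZ, with TBZ replicate 2 the lowest, and a log2 fold change of -1.10 ± 0.30 (SE, edgeR adjusted p = 0.257). With no filter on low counts the adjusted p of Gkn3 was 0.0194 and that of Gif 0.0322 (edgeR).

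Transcription factors of foregut and stomach differed among themselves in pattern. Of 15 tested genes, 8 had a negative and 7 a positive log2 fold change (median -0.10), and edgeR called none of them. The most abundant, Foxa2, Gata4, Gata6 and Foxa3, act in pancreas as well as stomach and had log2 fold changes of 0.14, 0.31, 0.14 and 0.22. DESeq2, which called 1.43% of the genes to which it gave an adjusted p, put Gata4 higher. Foxa1, a forkhead factor of gut endoderm, stood at 7.36, 3.59 and 16.0 CPM in control replicates 1 to 3 and, for TBZ in the same order, at 0.248, 7.90 and 0.112 CPM. As for Cym, control replicate 3 was its highest library and TBZ replicates 1 and 3 its lowest. Foxa1 was named after its values were seen. Of the 16 genes, 7 were highest in control replicate 3, and 7 had TBZ replicates 1 and 3 both lowest. The share of all genes with either pattern was not counted. Each TBZ library lay below each control for Sox2 and Sox21, and above each control for Foxa2, Gata4, Foxa3 and Spdef. Such full separation was seen for 15.5% of the tested genes. Without the filter on low counts edgeR called 1.42% of all genes. In this list it then put 5 of the 16 genes lower (Pitx1, Foxa1, Sox2, Sox21 and Foxq1) and 1 higher (Gata4), calls that it made for none with the filter.

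Genes of lists named for neighbouring tissues varied between libraries in part as the members did. Reads of whole buds do not show which tissue these transcripts came from, and the part of such tissues in the member values was not tested. Among 9 genes of stomach mesenchyme, 8 had a negative log2 fold change, the median was -0.31 and none passed (edgeR). With no filter, where edgeR called 1.42% of all genes, 3 were lower. Their summed level was 642.3 to 666.8 CPM in control, 667.2 CPM in TBZ replicate 2, and 518.0 and 521.8 CPM in TBZ replicates 1 and 3. Barx1, a transcription factor that directs stomach development from the mesenchyme, stood at 93.7 to 108.8 CPM in control, at 106.0 CPM in TBZ replicate 2, and at 68.5 and 74.6 CPM in TBZ replicates 1 and 3. The sum, to which Sfrp1 gave the most (257.4 to 335.3 CPM), was thus low in TBZ replicates 1 and 3, where Cym and Pgc were lowest. It was not low in control replicate 2, which was low in Pgc. By gene, TBZ replicates 1 and 3 were both lowest for 6 of the 9, and not for Isl1, Nkx2-5 and Nkx3-2. They were both lowest for 5 of 27 gastric, 2 of 10 oesophagus and forestomach, 1 of 24 general epithelial and 0 of 12 pancreatic genes. The share over all genes was not counted.

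Of 10 genes of the stratified epithelium of oesophagus and forestomach, 8 were highest in control replicate 3, the library highest in Cym. That library was also highest for 7 of 16 foregut and stomach transcription factors and 9 of 24 general epithelial genes, and for 4 of 27 gastric and 1 of 12 pancreatic genes. The share over all genes was not counted. Some of the 8 had few reads there, such as Dsg3 (16) and Sox15 (20). The log2 fold change was negative for all 7 tested genes of 10 (median -0.37), and none passed (edgeR). With no filter, where edgeR called 1.42% of all genes, 3 of the 10 were lower. The list summed to 58.4 CPM in control replicate 3, to 29.6 and 22.5 CPM in control replicates 1 and 2, and to 21.5 to 25.1 CPM in TBZ. Krt15, a basal keratin gene, reached 21.2 CPM in control replicate 3 and lay at 3.59 to 5.59 CPM in the other libraries. The exceptions were Krt14, the most abundant gene of the list, at 13.0 CPM in that library and 13.2 CPM in control replicate 1, and the desmosomal cadherin gene Dsc3, at 4.91 CPM there and 5.30 CPM in TBZ replicate 2. Pgc, Cldn18 and Anxa10 were not highest in control replicate 3.

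Summed levels of intestinal and of liver genes overlapped between the groups. Of 16 intestinal genes, Apoa4 and Sis had no read and the intestinal transcription factor gene Cdx2 did not exceed 0.0841 CPM. The list summed to 14.1 to 17.5 CPM in control and 15.8 to 18.5 CPM in TBZ. The 9 liver and bile duct genes summed to 176.5 to 208.8 CPM in control and 179.4 to 222.4 CPM in TBZ. Most of that sum was Ttr (108.3 to 152.6 CPM), which is also a gene of islet cells. Control replicate 3 was highest for 2 of the 9, among them Cftr, at 4.74 CPM there and 0.841 to 1.84 CPM elsewhere. TBZ replicates 1 and 3 were both lowest for 0 of these 9 and for 1 of 14 intestinal genes with reads, Fabp2, which had no read in them and 10 in TBZ replicate 2. None of the tested genes of these lists passed the edgeR test.

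Pancreatic epithelial genes lay above 0 in TBZ against control, as Tff2 did. The log2 fold change was positive for all 12 (median 0.41), and 3 passed the edgeR test: the carboxypeptidase gene Cpa1 (0.44), the lipase gene Cel (0.69) and Bhlha15 (0.50), a transcription factor of secretory cells. DESeq2 put 7 higher and edgeR with no filter 9, limma put 1 higher, and 0 passed with the replicate number as a block. Over all genes, edgeR called 0.187% of those tested, DESeq2 1.43% of those with an adjusted p, and edgeR with no filter 1.42%. The count was 1 without control replicate 2 or TBZ replicate 1, and 0 without TBZ replicate 3. The list summed to 1768 to 1975 CPM in control and to 2429 to 2747 CPM in TBZ. Most of that sum came from Cpa1 and Cel. In the sum, TBZ replicate 2 was the lowest TBZ library and lay above each control, but by gene it lay above each control for 8 of the 12, and not for Rbpjl, Onecut1, Ptf1a and Mnx1. Of 24 general epithelial genes, 23 were tested, 18 had a positive log2 fold change, the median was 0.13 and none passed (edgeR). With no filter, where edgeR called 1.42% of all genes, 3 were higher and 2 lower. Whether the level of Tff2 follows that of pancreatic epithelium was not tested.

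**Figure D5:**
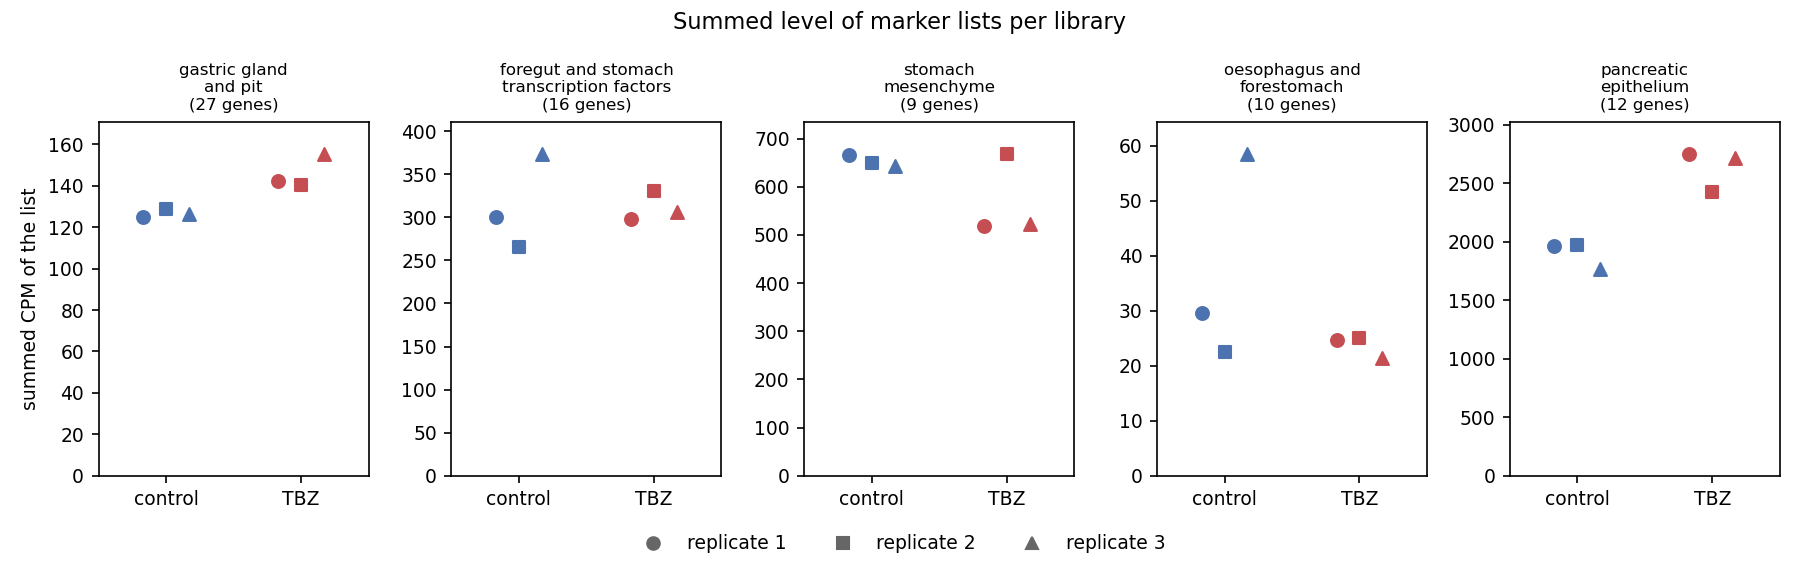
Summed CPM (vertical axes from 0, own scale per panel) of marker lists in the 3 control (blue) and 3 TBZ (red) libraries, with marker shape giving the replicate. Stomach mesenchyme is low in TBZ replicates 1 and 3 (518.0 and 521.8), oesophagus and forestomach is high in control replicate 3 (58.4), and pancreatic epithelium is higher in each TBZ library.

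The most abundant other genes of the same families were steady between libraries, and some of the less abundant were not. Of the pepsin family, the lysosomal protease gene Ctsd (mean 114.9 FPKM) and the beta-secretase gene Bace1 (15.1 FPKM) were the only other genes with a mean of at least 1 FPKM, and Ctsd stood between 241.8 and 310.0 CPM in all 6 libraries. Cym, at 16.7 FPKM, was thus below Ctsd and close to Bace1. Below 1 FPKM, where Cldn18 and Anxa10 also lie, Bace2 ran from 2.579 to 5.976 CPM and Pga5 had no read in TBZ replicates 1 and 3. These replicates were both lowest for 1 of 7 other pepsin genes with reads, 0 of 19 claudins and 0 of 11 annexins, a pattern not counted over all genes. Of 21 other claudins, 13 had a mean of at least 1 FPKM, led by the epithelial claudins Cldn6 (116.1 FPKM), Cldn3 (94.9), Cldn4 (69.7) and Cldn7 (45.1). Cldn6 stood between 186.6 and 215.9 CPM, whereas Cldn15, at a mean of 1.496 FPKM, ran from 1.759 to 5.625 CPM. None of the 14 tested claudins passed the edgeR test, while DESeq2, which called 1.43% of the genes to which it gave an adjusted p, put Cldn10 higher. Of 11 other annexins, 10 had a mean of at least 1 FPKM, led by Anxa6 (125.6 FPKM) and Anxa5 (124.7 FPKM), and none passed. Anxa8 was the least steady, reaching 6.39 CPM for control replicate 3 against 0.749 to 1.69 CPM in the other libraries.

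Tff2 lies on the minus strand of chromosome 17 from 31141049 to 31144282 in a cluster with the other trefoil genes, Tff3 11.4 kb away on one side and Tff1 17.1 kb away on the other. Tff3, the trefoil gene of intestinal goblet cells, had 81, 61 and 35 reads in control replicates 1 to 3 and 62, 26 and 53 reads in TBZ, so that its groups overlapped (log2 -0.05 ± 0.37 SE, edgeR). Tff1 had no read. The cholesterol transporter gene Abcg1, 25.3 kb away, had a log2 fold change of 0.19 ± 0.11 (SE). The antisense gene Gm15318, 8.47 kb away, had 1, 3 and 2 reads in control replicates 1 to 3 and 10, 5 and 4 reads in TBZ. Its groups did not overlap, but its reads were few and it was not tested. None of the tested neighbours within 50 kb of Tff2 or of the other members passed the edgeR test. Tfeb, 2.55 kb downstream of Pgc, stood at 7.75 to 8.62 CPM in control and at 9.82 to 10.6 CPM in TBZ (log2 0.31 ± 0.09 SE, edgeR adjusted p = 0.280). Its groups did not overlap, as for 15.5% of the tested genes, and it had no dip in TBZ replicates 1 and 3. The antisense gene Gm16004, which overlaps Cldn18 on the other strand, had no read.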

How the data were processed

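RNA of 3 control and 3 TBZ samples was poly-A selected, prepared with a NEBNext Ultra kit and read from both ends, per the labels' protocols. The aligner STAR, the counter HTSeq and the build mm10 are named in the submitters' processing notes; versions and strand setting are not given in the sources used here. The deposited table gives raw read counts per gene and library, per the file headers. Its FPKM values were made by the authors from counts and gene length. Its signal columns (mean normalized counts per group), log2 fold changes and p-values are also the authors', made with a tool that is not given in the sources used here. For the members, these log2 fold changes were nearly those of DESeq2 as run here.

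Counts were tested with the edgeR (4.0.16) quasi-likelihood test in R 4.3.3, scaled by TMM and filtered with filterByExpr, with p-values of 18226 genes adjusted by Benjamini-Hochberg. Each SE was derived from the fit (size of the log2 fold change divided by the root of F). DESeq2 (1.42.0), limma (3.58.1) on log2(FPKM + 0.5) or log2(FPKM + 0.1), RLE scaling, no filter, a replicate block and leaving out each library were alternatives. DESeq2 gave no adjusted p to Cym or Anxa10. Counts were also simulated, with 17987 genes tested and 50 genes moved at each size. On these the edgeR test recovered 54% of 1.5-fold and 78% of 2-fold changes, and 14 of 172 calls were false. Each simulated gene had the spread typical of its level. The recovery thus does not apply to Cym, Pgc, Cldn18 and Anxa10, whose biological coefficients of variation were 64.3% to 109.1%.

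The members and gene lists were chosen with earlier results of these data known. Named genes were the members, the 4 genes of each list with the highest mean FPKM and those called, family genes with a mean of at least 1 FPKM, the 8 genes nearest to the median member profile, and neighbours within 50 kb; some that the rule names are given only as counts, and other names were chosen after their values were seen. Family lists held 3 trefoil, 10 pepsin (9 in the table), 22 claudin and 12 annexin genes. Coding sequences of Cym and Pgc (GENCODE M21) were aligned globally with Biopython 1.88, in place of the planned protein alignment, since a protein table was not used here.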

Additional observations from a re-analysis of the deposited data

How the results depend on the processing

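Over all genes, edgeR called 28 genes higher and 6 lower in TBZ. The count was 170 higher and 52 lower with DESeq2, 263 and 182 with no expression filter, 4 and 1 with the replicate block, and 3 to 29 higher and 2 to 8 lower with each library left out in turn. With limma it was 9 higher at a pseudocount of 0.5 and 10 at 0.1. Of the members, Cym and Pgc were below 0 and Tff2 above 0 in all 12 alternatives. Anxa10 turned to -0.061 with limma at a pseudocount of 0.1 and to -0.0059 with the replicate block, and ran from -3.36 to 1.54 with each library left out. Cldn18 ran from -1.85 to 0.54 with each library left out. Tff2 passed the threshold with DESeq2 and with no filter in edgeR (adjusted p = 0.0317 and 0.00538) and in none of the other alternatives, whose adjusted p ran up to 0.502. The cause of these differences was not tested. Deviations from the group means correlated at -0.00786, -0.181 and -0.0793 between control and TBZ samples of replicate numbers 1 to 3. Between samples of unlike number they correlated at -0.111 to 0.173. With 3 libraries per group these values cannot show whether samples shared a litter or batch. The replicate block lowered the counts of calls as given above. At this depth Anxa10, Gkn2 and Gif rest on few reads, so single values carry a large counting error.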
